A study of Mus musculus with 9 samples.

Results

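The genes described here are 9 that mark oligodendrocyte precursors and the first steps towards myelin: Pdgfra, Cspg4, Sox10, Lhfpl3, Neu4, Gpr17, Bcas1, Cnp and Mbp. They were taken by gene name from the deposited tables of newborn mouse cortex, where each has 1 row among 22496 genes of the table with ShhN IUE and 1 row among 23624 genes of the table with SmoM2. RNA of dissected cortex at postnatal day 0 was sequenced in 9 bulk libraries, 3 in each of 3 groups, all from animals of a mixed C57BL/6J, 129S6 and CD1 background. The first group was wild type, labelled as littermates. The second, ShhN IUE, received ShhN, the N-terminal signalling fragment of Sonic hedgehog (SHH), by in utero electroporation, and no group electroporated without ShhN was analysed here. The third carried hGFAP-Cre and a conditional SmoM2 allele (SmoM2f/+), so that Cre driven by the human GFAP promoter, which is active in radial glia of the cortex, turned on SmoM2, an activated form of the SHH signal transducer Smoothened. The labels give neither the time of electroporation nor the cells it reached, and do not say whether each library came from 1 animal. P-values therefore measure the spread between these samples, which may be technical. Each intervention group was compared with the wild-type libraries of its own table, since the same 3 wild-type libraries were quantified separately in the 2 tables.

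Oligodendrocytes arise from dividing precursors that carry the PDGF receptor alpha and the proteoglycan NG2, the products of Pdgfra and Cspg4, and that depend on the transcription factors OLIG2 and SOX10. On leaving the cycle they pass through a short committed stage marked by the receptor GPR17 and then a premyelinating stage marked by BCAS1, before they make myelin proteins such as CNP and MBP. SHH is the classic inducer of oligodendrocyte precursors in the ventral neural tube and forebrain, and the cortex of a newborn mouse holds many precursors but very little myelin. The title of the series asks how SHH directs lineage progression of cortical stem cells, and these genes read 1 branch of that progression.

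Libraries held 15376071 to 26923127 counts. ShhN IUE library 3 stood apart from its group, with a Shh count of 455. The others had 51 and 52, and wild type 31 to 62. Over the group Shh was not called (edgeR log2 fold change 2.40 ± 0.89, SE, adjusted p = 0.0693). Gli1, a target gene of SHH signalling, was above wild type in every library of the group (512, 466 and 1100 against 109 to 201). It was called higher (log2 2.44 ± 0.40, edgeR adjusted p = 0.00369). Smo had 1693 to 2293 counts in SmoM2 and 349 to 574 in the wild-type libraries of that table. Values without ShhN IUE library 3 are given where leaving it out changed a call of 1 of the 9 genes. They are also given where it moved a called value by over 1.5 times. For Mbp only the loss of the call is given. The neuronal genes Tubb3, Rbfox3, Snap25, Syt1, Stmn2 and Neurod6, defining markers of the labelled tissue, were present and summed to 1651 to 2408 FPKM over all libraries of both tables. Of these 6, Snap25, a synaptic vesicle fusion protein, was lower in ShhN IUE and in SmoM2 (log2 -0.60 ± 0.11 and -0.62 ± 0.10), though its wild-type counts differed by 0.75 on the log2 scale between the tables. In ShhN IUE Syt1, a calcium sensor of vesicles, was also lower (-0.38 ± 0.10) and Tubb3, a neuronal tubulin, higher (0.44 ± 0.12). Each of these 2 calls was lost without any 1 of 4 libraries (ShhN IUE 2 or 3 and wild type 1 or 2 for Syt1, ShhN IUE 1 or 2 and wild type 2 or 3 for Tubb3). Among all tested genes 16.1% rose and 17.2% fell in ShhN IUE, and 9.59% rose and 9.29% fell in SmoM2. The part of neuronal RNA in the values of the 9 genes was not tested.

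Of the 9 genes, 6 rose and 1 fell in ShhN IUE, and 6 rose and 0 fell in SmoM2. The genes that rose in both were Sox10, Gpr17, Bcas1, Cnp and Mbp. Cspg4 rose and Lhfpl3 fell in ShhN IUE, Pdgfra rose in SmoM2, and Neu4 passed in neither comparison. All 9 passed the expression filter in both tables. In ShhN IUE against wild type 33.3% of 16180 tested genes were called (16.1% higher and 17.2% lower), and in SmoM2 against wild type 18.9% of 16485 were called (9.59% higher and 9.29% lower). The median log2 fold change of the 9 genes was 0.745 in ShhN IUE and 0.633 in SmoM2, against -0.00384 and -0.00719 over all tested genes. Groups did not overlap in 8 of the 9 genes in ShhN IUE and in 7 in SmoM2, where 49.4% and 40.1% of all tested genes did not overlap. Both comparisons use the same wild-type libraries, so the shared calls are not independent of each other. In bulk RNA a change in the number of cells of a type cannot be told apart from a change in RNA per cell.

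**Figure D1:**
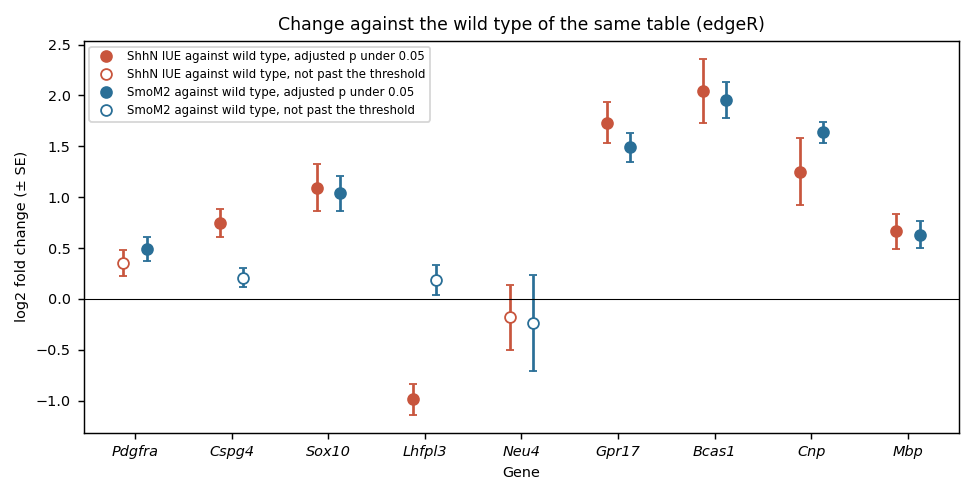
Log2 fold change of each gene (vertical axis, ± SE) in ShhN IUE (red) and SmoM2 (blue) against the wild type of the same table, with 3 libraries per group; filled points passed the edgeR threshold. Bcas1 and Gpr17 lie highest among the genes in ShhN IUE and Lhfpl3 alone is filled below 0.

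Promoter sequence was examined for the members with an entry in RefSeq's promoter table (GRCm38.p6), which were 5 of 9. The start is that of the RefSeq entry, which need not be that of the deposited locus: the Cnp window below ends at 100574938, inside the deposited Cnp locus, which begins at 100574904. The 250 bases before the RefSeq start are printed for 3 with unlike responses: Cnp, which rose in both groups, Pdgfra, whose change was small, and Lhfpl3, which fell in ShhN IUE. Capitals mark matches, on either strand, to the GLI motif GACCACCCA, its inner letters CCACCC, the SOX motif ACAAAG or the E-box CAGCTG. The sequences run 5′ to 3′ on the plus strand of chr11:100574689-100574938, chr5:75152001-75152250 and chr5:22745804-22746053.
Cnp: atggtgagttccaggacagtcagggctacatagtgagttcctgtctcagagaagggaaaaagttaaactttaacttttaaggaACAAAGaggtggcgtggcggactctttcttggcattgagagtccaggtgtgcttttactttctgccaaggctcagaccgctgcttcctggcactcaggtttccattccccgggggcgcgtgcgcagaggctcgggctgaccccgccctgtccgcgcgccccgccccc
Pdgfra: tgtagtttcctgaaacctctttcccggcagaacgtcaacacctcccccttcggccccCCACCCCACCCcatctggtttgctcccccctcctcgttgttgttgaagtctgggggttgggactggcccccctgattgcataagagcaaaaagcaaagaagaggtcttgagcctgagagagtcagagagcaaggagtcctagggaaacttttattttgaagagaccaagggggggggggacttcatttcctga
Lhfpl3: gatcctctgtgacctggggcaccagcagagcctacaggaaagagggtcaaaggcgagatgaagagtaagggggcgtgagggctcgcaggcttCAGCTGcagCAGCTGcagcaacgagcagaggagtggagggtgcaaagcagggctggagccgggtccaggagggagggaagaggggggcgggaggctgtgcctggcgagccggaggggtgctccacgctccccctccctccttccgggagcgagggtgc
The Cnp promoter held 1 ACAAAG, at positions -167 to -162 from the RefSeq start, and 16.5% of 32851 promoters of this length hold that word. Pdgfra held CCACCC at 2 places that share 1 base (found in 28.1% of promoters), and Lhfpl3 held CAGCTG at 2 places (13%). The Cspg4 and Neu4 promoters held none of the 4 words, and GACCACCCA, found in 0.225% of promoters, was in none of the 5. A match describes letters in this window and is not evidence of binding.

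Levels are compared between genes on the length-corrected FPKM scale. In wild-type cortex (values of the table with ShhN IUE, mean ± SD, n = 3) the highest were Gpr17 at 6.48 ± 1.11 FPKM, Pdgfra at 6.44 ± 1.23, Sox10 at 5.64 ± 1.34 and Lhfpl3 at 5.13 ± 0.805. Neighbours among these 4 overlapped. Below them, without overlap, came Cnp at 3.46 ± 0.256 and Cspg4 at 3.45 ± 0.215 FPKM, which overlapped each other. Mbp at 1.87 ± 0.327, Bcas1 at 1.05 ± 0.2104 and Neu4 at 0.216 ± 0.0385 FPKM followed, each apart from the one before. The order was different in the intervention groups. In SmoM2 it ran Gpr17 (18.6 ± 2.23 FPKM), Sox10 (11.8 ± 1.10), Cnp (10.9 ± 0.803), Pdgfra (9.31 ± 0.289), Lhfpl3 (5.96 ± 0.8200), Cspg4 (4.07 ± 0.214), Bcas1 (3.72 ± 0.669), Mbp (3.27 ± 0.238) and Neu4 (0.188 ± 0.121). There the neighbours Sox10 and Cnp, Cspg4 and Bcas1, and Bcas1 and Mbp overlapped. In ShhN IUE Gpr17 again stood first at 22.2 ± 5.66 FPKM, apart from Sox10 at 12.4 ± 3.35, and Lhfpl3 stood eighth at 2.66 ± 0.188. Cnp, level with Cspg4 in wild type, was thus above Pdgfra in SmoM2, where the 2 genes did not overlap.

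**Figure D2:**
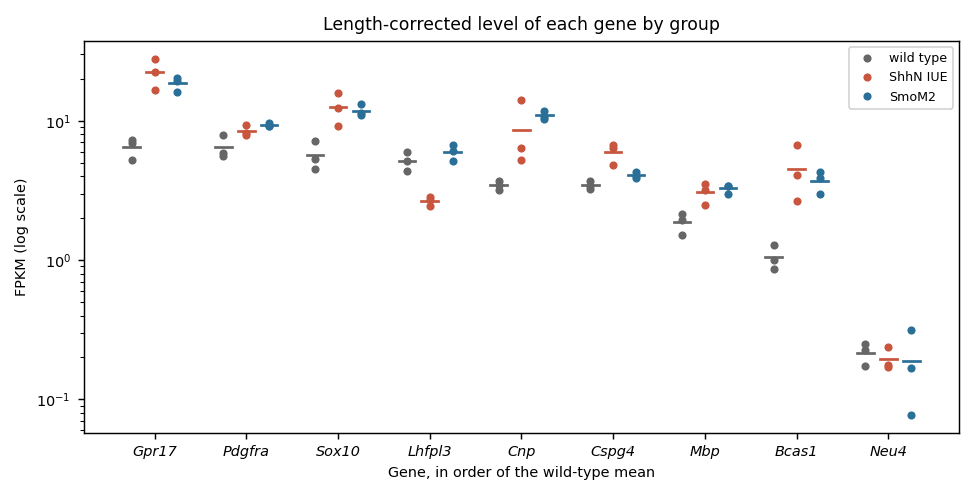
Deposited FPKM (vertical axis, log scale) of the 9 genes in wild type (grey, from the table with ShhN IUE), ShhN IUE (red) and SmoM2 (blue); points are libraries and bars means of 3. Gpr17 lies at 5.22 to 7.26 FPKM in wild type and at 16.0 to 27.9 FPKM in the intervention groups, and Neu4 stays below 0.32 FPKM.

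Pdgfra encodes the receptor through which PDGF-A keeps precursors dividing. It had 87.0, 116 and 89.9 CPM (counts relative to the TMM-scaled library size) in wild-type libraries 1, 2 and 3 and 121, 119 and 134 in ShhN IUE libraries 1, 2 and 3. The groups did not overlap, but wild-type library 2 lay close to the ShhN IUE libraries, and the log2 fold change of 0.35 ± 0.13 (SE) did not pass (edgeR adjusted p = 0.0689). Without wild-type library 2 it was 0.49 and passed (adjusted p = 0.0223), and fitting the 9 libraries together also called it (adjusted p = 0.0212). In SmoM2 the values were 135, 137 and 143 CPM, all above the 87.0 to 117 CPM of wild type in that table, and Pdgfra rose 1.41-fold (log2 0.49 ± 0.12, edgeR adjusted p = 0.0255). That call rested on every SmoM2 library and on wild-type libraries 1 and 3, since leaving out any of these 5 lost it (adjusted p up to 0.0963).

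Pdgfra is also a gene of meningeal fibroblasts, which can remain on dissected cortex. Col1a1, a collagen gene of those cells, had 1.45, 95.1 and 33.9 CPM in wild-type libraries 1, 2 and 3, 3.71, 16.3 and 237 CPM in ShhN IUE libraries 1, 2 and 3, and 95.6, 42.9 and 66.2 CPM in SmoM2. Wild-type library 2 and ShhN IUE library 3 were the highest of their groups for both Col1a1 and Pdgfra, while in SmoM2 library 1 was highest for Col1a1 and lowest for Pdgfra. The 9 meningeal genes summed to 2.55 to 94.4 FPKM in wild type, 3.38 to 122 in ShhN IUE and 36.0 to 73.2 in SmoM2. None was at 0 in every library of a group, and 0 of 9 passed the test in either comparison with wild type or between the groups. Among all tested genes 33.3% were called in ShhN IUE, 18.9% in SmoM2 and 16.5% between the groups. When ShhN IUE library 3 was left out, 4 of 9 were lower in ShhN IUE than in wild type (Col1a2, Dcn, Lum and Slc6a13), and 7 were higher in SmoM2 than in ShhN IUE. Over all genes 4359 of 16510 were then called in ShhN IUE, in either direction, and 1900 of 12615 between the groups. The log2 difference of Col1a1 in ShhN IUE went from 0.97 to -2.12 (edgeR adjusted p = 0.251), not called either way. The part of the meningeal genes' cells in the Pdgfra values was not tested.

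Cspg4 encodes NG2, the proteoglycan that names precursors as NG2 glia. Wild type held 27.2, 29.1 and 28.2 CPM and ShhN IUE 50.8, 38.9 and 51.8 CPM in libraries 1, 2 and 3. Every ShhN IUE library was above every wild-type library, and Cspg4 rose 1.68-fold (log2 0.74 ± 0.14, edgeR adjusted p = 0.00564). SmoM2 held 34.2, 31.3 and 31.9 CPM against 27.0, 29.1 and 28.1 CPM in its wild type, a non-overlapping difference of 0.21 ± 0.09 on the log2 scale that did not pass (edgeR adjusted p = 0.153).

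Cspg4 is shared with pericytes and other mural cells, so the mural genes are given beside it. Of 10, 3 rose in ShhN IUE: Kcnj8, a pericyte potassium channel subunit (log2 fold change 1.20 ± 0.33), Pdgfrb, the PDGF receptor beta of pericytes (0.82 ± 0.23), and Notch3, a Notch receptor of mural cells (0.60 ± 0.18). Pdgfrb had 24.6, 44.8 and 32.6 CPM in wild type and 56.8, 51.0 and 71.9 CPM in ShhN IUE. The share of all tested genes that rose was 16.1% in ShhN IUE and 9.59% in SmoM2. In SmoM2 0 of 10 mural genes passed, and Pdgfrb differed by 0.40 ± 0.20 (edgeR adjusted p = 0.199). The number that rose in ShhN IUE was 0 when library 1 or 3 of either group was left out, and in SmoM2 it was 3 without wild-type library 2. The 10 genes summed to 37.3 to 82.9 FPKM in ShhN IUE, 31.5 to 59.3 in its wild type and 46.6 to 51.3 in SmoM2, and none was at 0 in every library of a group. How much of the Cspg4 counts came from mural cells was not tested.

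Sox10 encodes a transcription factor of the lineage that turns on myelin genes. It had 12.7, 14.2 and 19.7 CPM in wild type, 33.1, 24.9 and 41.5 CPM in ShhN IUE and 35.0, 30.8 and 29.6 CPM in SmoM2. All 6 intervention libraries were above all wild-type libraries. Sox10 rose 2.14-fold in ShhN IUE (log2 1.09 ± 0.23, edgeR adjusted p = 0.00944) and 2.05-fold in SmoM2 (1.04 ± 0.17, adjusted p = 0.00527). Sox10 is also expressed in Schwann cells and neural crest. Of the genes listed for those cells 4 were tested. Among all tested genes 17.2% fell in ShhN IUE and 9.29% in SmoM2. Egr2, which neurons also induce with activity, fell in both comparisons (log2 -2.29 ± 0.50 and -1.77 ± 0.29). The other genes tested from the list were not called. The genes of that list with values, 5 in all, summed to 2.03 to 4.07 FPKM in ShhN IUE, 2.09 to 2.40 in SmoM2 and 2.53 to 8.43 in wild type, and none was at 0 in every library of a group.

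Lhfpl3 encodes a tetraspan membrane protein enriched in precursors. It had 29.1, 32.03 and 24.2 CPM in wild type and 14.8, 15.4 and 12.9 CPM in ShhN IUE, with no overlap. It fell by 0.99 on the log2 scale (SE 0.15, edgeR adjusted p = 0.00287), the opposite direction to the other 6 genes called in ShhN IUE. In SmoM2 the values were 32.7, 36.9 and 27.6 CPM against 29.0, 32.1 and 24.1 CPM in wild type, which overlapped, and Lhfpl3 did not pass (log2 0.19 ± 0.15, adjusted p = 0.405). Lhfpl3 is the longest of the 9 loci and overlaps 6 annotated genes in GENCODE M21. Of these, 6030443J06Rik and A930003O13Rik were tested, lay at 0.67 to 2.63 CPM and did not pass in either comparison.

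Neu4 encodes a sialidase found in precursors. It was close to the detection limit, with 20, 31 and 24 counts in wild type, 20, 23 and 15 in ShhN IUE and 12, 43 and 25 in SmoM2. The groups overlapped, and its log2 fold changes of -0.18 ± 0.32 in ShhN IUE and -0.24 ± 0.47 in SmoM2 did not pass (edgeR adjusted p = 0.688 and 0.762). The SE of Neu4 in SmoM2 was the largest of the 9 genes.

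**Figure D3:**
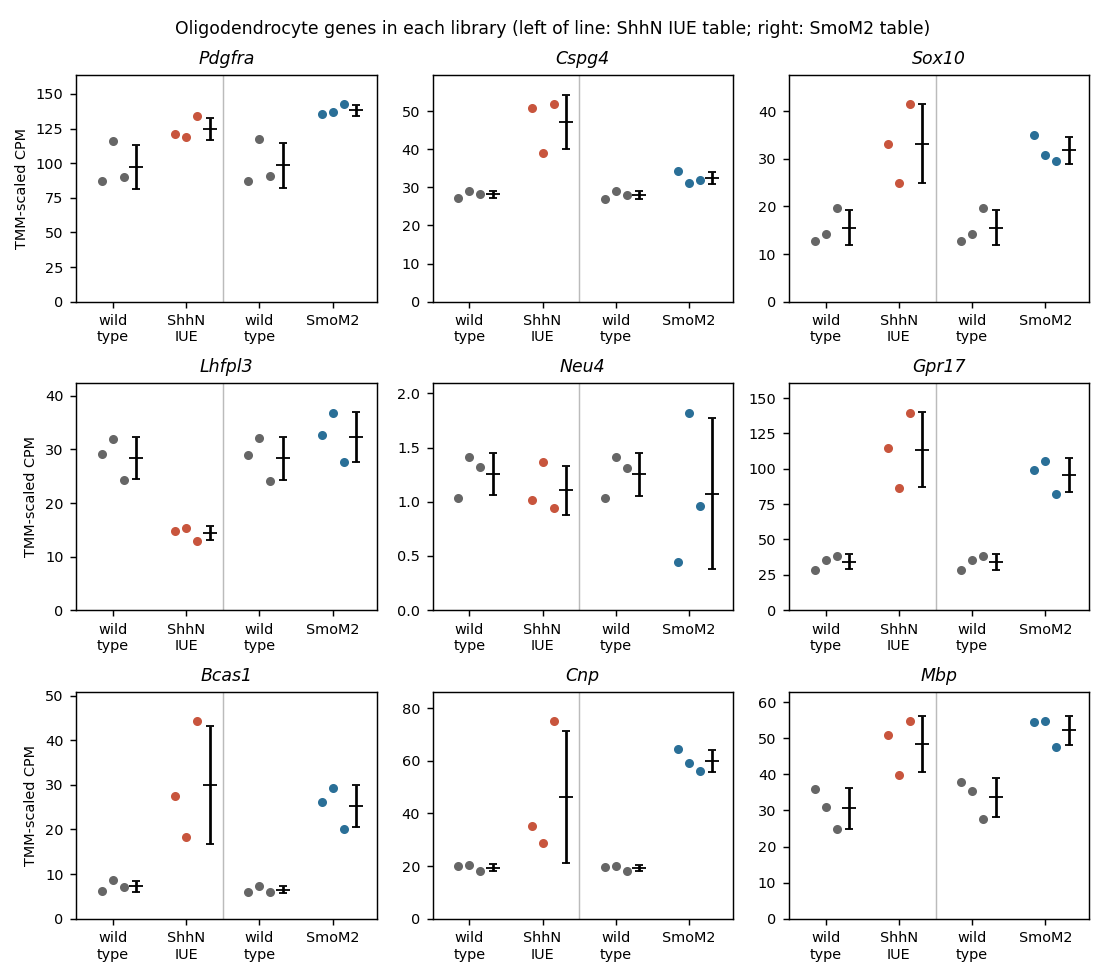
TMM-scaled CPM (vertical axes, from 0) of each gene in each library, with the table of ShhN IUE left of the grey line and that of SmoM2 right of it; points run from library 1 to 3 and the black bar is mean ± SD. Gpr17 and Bcas1 separate fully from wild type in both tables, Lhfpl3 is low in the ShhN IUE libraries only, and Cnp is spread from 28.9 to 75.0 CPM in ShhN IUE.

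Gpr17 encodes an orphan-type G protein-coupled receptor that marks precursors committed to differentiate and is lost before myelin forms. It had 28.2, 35.7 and 38.6 CPM in wild type, 115, 86.2 and 140 CPM in ShhN IUE and 99.1, 106 and 82.3 CPM in SmoM2. The lowest intervention library was above the highest wild-type library by more than the range of wild type. Gpr17 rose 3.33-fold in ShhN IUE (log2 1.73 ± 0.20, edgeR adjusted p = 0.00106) and 2.81-fold in SmoM2 (1.49 ± 0.15, adjusted p = 0.000641). The Gpr17 locus (chromosome 18, 31942997 to 31949636) lies within Lims2 on the other strand, and the sources used here do not say whether the counting used strand. Lims2 had 1.86 to 10.5 CPM across both tables, below the lowest Gpr17 value, and rose in both comparisons (log2 1.67 ± 0.34 and 1.78 ± 0.24).

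Bcas1 encodes a protein of premyelinating and early myelinating oligodendrocytes. It had 6.12, 8.59 and 7.03 CPM in wild type and 27.6, 18.2 and 44.3 CPM in ShhN IUE, where library 3 was highest. SmoM2 held 26.1, 29.4 and 20.2 CPM against 5.99, 7.42 and 6.07 CPM in its wild type. Neither comparison overlapped. Bcas1 rose 4.13-fold in ShhN IUE (log2 2.05 ± 0.32, edgeR adjusted p = 0.00297) and 3.88-fold in SmoM2 (1.96 ± 0.18, adjusted p = 0.000519), the largest rise of the 9 genes in each on the count scale. On the log2(FPKM + 1) scale its changes, 1.36 and 1.27, were below those of Gpr17 (1.62 and 1.39) and, in SmoM2, of Cnp (1.42). Its wild-type counts summed to 435 in the table with ShhN IUE and 390 in that with SmoM2.

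Cnp encodes a phosphodiesterase of non-compact myelin that appears early in differentiation. Wild type was tight at 20.0, 20.2 and 18.1 CPM, and SmoM2 at 64.6, 59.1 and 56.2 CPM, a 3.11-fold rise (log2 1.64 ± 0.10, edgeR adjusted p = 0.000136). ShhN IUE held 35.0, 28.9 and 75.0 CPM. All 3 were above wild type, but library 3 was more than the sum of the other 2. Cnp rose 2.38-fold there (log2 1.25 ± 0.33, adjusted p = 0.0212). Leaving out ShhN IUE library 3 gave a log2 fold change of 0.73 (adjusted p = 0.0131), and the call was lost when any 1 of the wild-type libraries was left out (adjusted p = 0.0568 to 0.0735). The Cnp locus (chromosome 11, 100574904 to 100591729) partly overlaps Dnajc7 on the other strand, which lay at 170 to 222 CPM and changed by 0.30 ± 0.08 in ShhN IUE (adjusted p = 0.0217) and by 0.10 ± 0.08 in SmoM2 (adjusted p = 0.425). Reads in the stretch that such partners share cannot be told apart without strand.

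Mbp encodes myelin basic protein, and the same locus also makes golli transcripts that are found in neurons, which gene-level counts do not separate. It had 35.9, 30.9 and 24.8 CPM in wild type and 50.8, 39.7 and 54.7 CPM in ShhN IUE. SmoM2 held 54.4, 54.7 and 47.7 CPM against 38.0, 35.4 and 27.6 CPM in its wild type. Groups did not overlap, and the rises were smaller than those of Cnp and Bcas1: 1.58-fold in ShhN IUE (log2 0.66 ± 0.18, edgeR adjusted p = 0.0221) and 1.55-fold in SmoM2 (0.63 ± 0.13, adjusted p = 0.0143). Leaving out 1 of 4 libraries lost the call in ShhN IUE (numbers 1 and 3 of that group, 2 and 3 of wild type; adjusted p up to 0.0727), and leaving out SmoM2 library 1 or 2 lost that in SmoM2 (adjusted p up to 0.0527).

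Within each library the genes were also set against Pdgfra as a ratio of FPKM, a description with no test. Gpr17 stood at 0.887 to 1.24 times the Pdgfra level in wild type, 2.10 to 3.01 times in ShhN IUE and 1.66 to 2.22 times in SmoM2. Bcas1 stood at 0.154 to 0.171 times in wild type, 0.337 to 0.724 times in ShhN IUE and 0.3098 to 0.4701 times in SmoM2. Cnp stood at 0.472 to 0.622, 0.659 to 1.51 and 1.06 to 1.29 times. For these 3 genes the intervention libraries did not overlap with wild type, in either table. Mbp and Sox10 relative to Pdgfra overlapped with wild type in both. Lhfpl3 went from 0.738 to 0.916 times in wild type to 0.264 to 0.355 times in ShhN IUE without overlap, and to 0.529 to 0.737 times in SmoM2, which overlapped with the wild type of its table (0.727 to 0.912). Cspg4 moved up to 0.610 to 0.778 times in ShhN IUE from 0.468 to 0.583, and in SmoM2 it was at 0.416 to 0.4704 against 0.462 to 0.577, which overlapped.

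**Figure D4:**
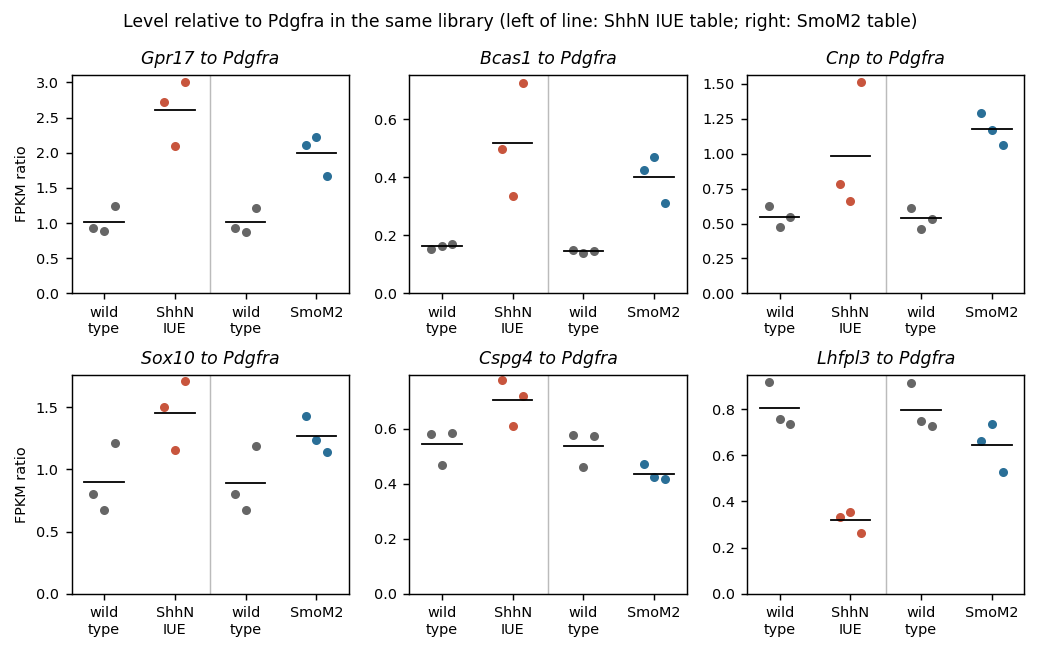
FPKM of 6 genes divided by that of Pdgfra in the same library (vertical axes, from 0), with the table of ShhN IUE left of the grey line and that of SmoM2 right of it; points are libraries and lines means of 3. The Gpr17 ratio is at most 1.24 in wild type and at least 1.66 in the intervention libraries, and the Lhfpl3 ratio is at most 0.355 in ShhN IUE.

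The intervention groups were compared with each other in 1 fit of all 9 libraries over genes whose wild-type counts agreed between the tables within 0.1 on the log2 scale, with CPM relative to those genes. Of the 9 members 7 could be tested, and 1 was higher and 1 lower in SmoM2 than in ShhN IUE, where 16.5% of 12347 tested genes were called (8.45% higher and 8.07% lower). Groups did not overlap in 3 of the 7, and in 41.0% of all tested genes. Lhfpl3 was higher in SmoM2 by 1.16 ± 0.15 on the log2 scale (2.23-fold, edgeR adjusted p = 0.00109), at 49.1 ± 7.09 against 22.0 ± 2.11 CPM (SD, n = 3). Cspg4 was lower in SmoM2, at 49.3 ± 2.40 against 72.2 ± 10.8 CPM (log2 -0.55 ± 0.12, adjusted p = 0.0111). The call of Cspg4 was lost without ShhN IUE library 1 or SmoM2 library 2 (adjusted p = 0.0597 and 0.0542), and then 0 members were lower.

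The differences of the other testable members between SmoM2 and ShhN IUE did not pass. They were 0.14 ± 0.11 for Pdgfra, -0.07 ± 0.20 for Sox10, -0.26 ± 0.17 for Gpr17 and -0.07 ± 0.45 for Neu4 (log2, SE). Cnp differed by 0.37 ± 0.27 with all libraries (edgeR adjusted p = 0.386). Without ShhN IUE library 3 it was higher in SmoM2 by 0.89 (adjusted p = 0.00232), so that 2 members were then higher. Bcas1 and Mbp, whose wild-type counts differed by 0.16 and -0.15 on the log2 scale between the tables, were outside the tolerance. With a tolerance of 0.2 they differed by -0.26 ± 0.27 and 0.10 ± 0.15 (adjusted p = 0.543 and 0.675).

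Other genes of the lineage were examined as lists that exclude the 9 genes. For comparison, 16.1% of all tested genes rose and 17.2% fell in ShhN IUE, and 9.59% rose and 9.29% fell in SmoM2. Of 14 further precursor genes, 7 rose and 3 fell in ShhN IUE (median log2 fold change 0.442), and 4 rose and 2 fell in SmoM2 (median 0.28). Olig2, which specifies the lineage, rose by 0.88 ± 0.18 on the log2 scale in ShhN IUE and 1.30 ± 0.15 in SmoM2, and its partner Olig1 by 0.58 ± 0.11 and 0.92 ± 0.12. Nkx2-2, a SHH-induced homeodomain factor of the lineage, rose by 2.64 ± 0.19 in SmoM2. It rose in ShhN IUE by 2.06 ± 0.48 (1.44 without library 3), a call lost without wild-type library 3 (edgeR adjusted p = 0.0507). Xylt1, a xylosyltransferase that starts proteoglycan chains, fell in both (-0.75 ± 0.13 and -0.94 ± 0.12). Sox5, a SOXD factor that is also strongly expressed in deep-layer cortical neurons, fell in both too (-0.61 ± 0.16 and -1.17 ± 0.09). Its call in ShhN IUE was lost when library 2 of ShhN IUE or library 1 or 3 of wild type was left out. Pcdh15, a protocadherin, fell in ShhN IUE by 0.89 (SE 0.17), with wild-type counts that differed by 0.37 on the log2 scale between the tables. Between SmoM2 and ShhN IUE, Olig2 differed by 0.41 ± 0.16 and Nkx2-2 by 0.49 ± 0.37, and neither passed (edgeR adjusted p = 0.0971 and 0.400). Without ShhN IUE library 3 both were higher in SmoM2, by 0.57 and 1.10 (adjusted p = 0.0299 and 0.0291).

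Among committed and premyelinating genes 3 of 12 rose and 2 fell in ShhN IUE (median 0.609), and 7 of 13 rose and 1 fell in SmoM2 (median 0.825). All tested genes rose in 16.1% and fell in 17.2% of cases in ShhN IUE, and in 9.59% and 9.29% in SmoM2. The genes of this list that rose in both comparisons include Lims2, whose locus spans Gpr17 on the other strand. Without strand, reads in the stretch it shares with Gpr17 cannot be told apart. Tns3, a tensin of newly forming oligodendrocytes, rose by 1.33 ± 0.25 and 1.21 ± 0.13. Enpp6, a choline phosphodiesterase that marks newly forming oligodendrocytes, rose in SmoM2 by 2.65 ± 0.39, from 0.238 ± 0.0490 to 1.51 ± 0.451 CPM. It was below the expression filter in ShhN IUE, and its log2 difference between SmoM2 and ShhN IUE, 0.72, did not pass. Myrf, the transcription factor that drives myelin gene expression, had 4.62, 2.54 and 2.53 CPM in wild type and 5.34, 2.43 and 12.4 CPM in ShhN IUE libraries 1, 2 and 3, which overlapped. It did not pass there (log2 1.05 ± 0.55, edgeR adjusted p = 0.173), and its difference was 0.28 without library 3. In SmoM2 it rose by 0.95 ± 0.25 (adjusted p = 0.0352), a call lost when any 1 SmoM2 library or wild-type library 2 or 3 was left out, and when the 9 libraries were fitted together (adjusted p up to 0.185). Tmem163, a zinc transporter also found in neurons, fell in both (-1.24 ± 0.23 and -1.58 ± 0.17), and Rras2, a RAS-related GTPase, fell in ShhN IUE by 0.94 (SE 0.12) and was higher in SmoM2 than in ShhN IUE by 0.65 ± 0.10. The number of this list that rose was 6 in ShhN IUE without its library 2, and 4 in SmoM2 without any 1 of its libraries, and 2 fell in SmoM2 without wild-type library 2.

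Most myelin genes did not pass. In ShhN IUE 2 of 11 rose and in SmoM2 3 of 12, and 0 fell in either (medians 0.25 and 0.105). Among all tested genes 16.1% rose in ShhN IUE and 9.59% in SmoM2. Fa2h, the hydroxylase of myelin lipids, had 0.311, 0.318 and 0.385 CPM in wild type, 1.53, 1.07 and 2.07 in ShhN IUE and 2.83, 2.33 and 2.19 in SmoM2. It rose by 2.18 ± 0.39 and 2.85 ± 0.29 (edgeR adjusted p = 0.00526 and 0.000701). Mobp, a protein of compact myelin, had 77 counts in SmoM2 and 3 in its wild type. Scaled for depth, the first was 19.9 times the second, and the exact 95% interval, for counting error only, ran from 6.56 to 98.6. In ShhN IUE Mobp was below the expression filter, and its log2 difference between SmoM2 and ShhN IUE, 1.05, did not pass. Mog, of the outer myelin surface, rose in ShhN IUE by 0.59 ± 0.16, a call lost when library 1 or 2 of ShhN IUE or library 2 or 3 of wild type was left out. Mag, a myelin adhesion protein, was lower in SmoM2 than in ShhN IUE (-1.08 ± 0.28, adjusted p = 0.0256), a call lost when any 1 SmoM2 library or library 1 or 3 of ShhN IUE was left out.

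**Figure D5:**
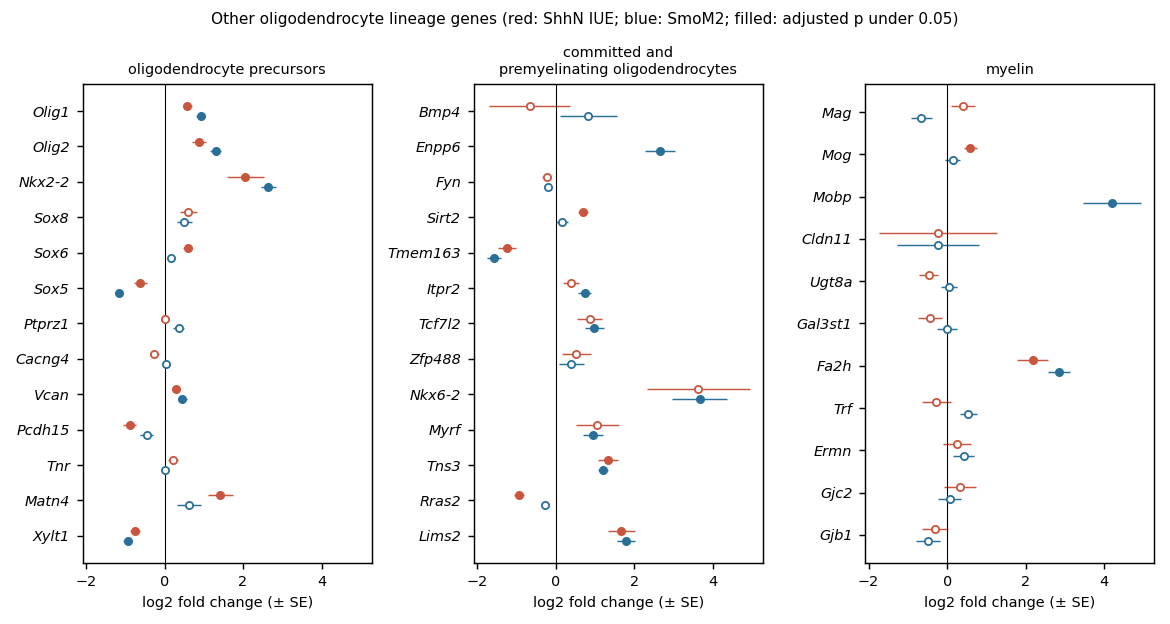
Log2 fold change (horizontal axes, ± SE) against the wild type of the same table of further precursor genes, committed and premyelinating genes, and myelin genes in ShhN IUE (red) and SmoM2 (blue); filled points passed the edgeR threshold. Olig1, Olig2 and Nkx2-2 are filled above 0 in both comparisons. Mobp and Enpp6 have a point for SmoM2 only, since they were below the expression filter in ShhN IUE. Genes not reported by name are not drawn.

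Pdgfa, the main ligand of the Pdgfra product, fell by 0.60 on the log2 scale in ShhN IUE (SE 0.14, edgeR adjusted p = 0.0125), a call lost without the first ShhN IUE library, and differed by -0.21 ± 0.10 in SmoM2 (adjusted p = 0.196). Pdgfc, another ligand, fell by 0.79 in SmoM2 (SE 0.13). Each was the only 1 of 4 ligands called in its comparison. Of 7 genes that hold back differentiation, 2 rose and 1 fell in ShhN IUE and 1 rose in SmoM2. Of all tested genes, 16.1% rose and 17.2% fell in ShhN IUE, and 9.59% rose and 9.29% fell in SmoM2. Sox2, a progenitor factor, rose in both (0.81 ± 0.19 and 1.12 ± 0.10), and Hes5, a Notch target, rose in ShhN IUE (1.20 ± 0.29), a call lost when library 1 of ShhN IUE or library 1 or 3 of wild type was left out. Id2, an inhibitor of bHLH factors, fell in ShhN IUE by 0.62 (SE 0.20, adjusted p = 0.0474), a call lost when any 1 library of ShhN IUE or library 1 or 2 of wild type was left out, and with upper quartile scaling, limma-voom or limma on FPKM. In SmoM2 Id2 differed by -0.59 ± 0.22 (adjusted p = 0.0953) and was called lower with DESeq2 and when wild-type library 3 was left out. The difference in ShhN IUE was -0.35 without wild-type library 1. Radial glia and astrocyte genes, which share progenitors with this lineage, rose in 4 of 6 cases in each comparison (Slc1a3, Vim, Aldoc and Gfap). That number was 2 in ShhN IUE when its library 3 was left out, and 2 in SmoM2 when its library 1 or 3 was. Leaving out library 1 or 3 of wild type also gave 2 in each comparison.

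The genes most like 3 members were sought over 11213 genes, as the smaller of the 2 Pearson correlations of log2 CPM over the 6 libraries of each table. Those 6 libraries form 2 groups, so any gene that differs between the groups scores high, and the tables share wild-type libraries. Gpr17 was most like Lix1l (0.991), Gltscr1l (0.989), Ddr1 (0.988), Caskin2 (0.988) and Zfyve21 (0.988). Ddr1, a collagen receptor kinase, rose by 1.83 ± 0.15 in ShhN IUE and 1.06 ± 0.13 in SmoM2. Among the other members Bcas1 (0.983) and Sox10 (0.969) were nearest to Gpr17. Sox10 was most like Mxi1 (0.986), Ppp1r13l (0.983), Btg1 (0.98), Trim36 (0.98) and Fam214b (0.979), and Mbp was most like Psme2b (0.977), Pnpla6 (0.977), Mpv17 (0.976), Ampd2 (0.974) and Dlx1as (0.966). Mbp correlated with Bcas1 at 0.888 and with Sox10 at 0.728. Lhfpl3 correlated with Gpr17 at -0.97 over the table of ShhN IUE and 0.517 over that of SmoM2.

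The authors' deposited table calls Gpr17, Sox10, Bcas1 and Cnp up in both comparisons. It calls 0 of the 9 genes down. Its q-values in ShhN IUE for Lhfpl3 (0.000506), Cspg4 (0.00258) and Mbp (0.0143) carry no call. Those in SmoM2 for Pdgfra (0.0141) and Mbp (0.00249) carry none either.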

How the data were processed

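RNA of newborn cortex was sequenced in 9 libraries, grouped by their sample titles. The authors deposited 2 tables, which give a read count and an FPKM value per gene and library and the authors' p-value and q-value, per the file headers. The submitters' processing notes name HISAT2, StringTie, edgeR, GRCm38.p4 and mm10. Counting rules and strand use are not given in the sources used here.

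Counts were tested over all genes of a table by edgeR 4.0.16 (quasi-likelihood F test, R 4.3.3), with TMM scaling and the default expression filter by group. A Benjamini-Hochberg adjusted p under 0.05 was called, and SE is the log2 fold change divided by the square root of F. SmoM2 and ShhN IUE were compared over 16195 genes whose summed wild-type counts, each plus 5, agreed between tables, with wild-type counts averaged. FPKM served for levels and, with limma 3.58.1, as an alternative. Other alternatives were DESeq2 1.42.0, limma-voom, other scalings and filters, the replicate number as a block, other tolerances and leaving out each library.

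The 9 genes and all lists were chosen with earlier results of these data known. All 9 are named. The named genes of other lists come from at most 4 called per list and comparison, taken by lowest adjusted p (not all are printed), and from Olig1, Olig2, Myrf, Pdgfa, Pdgfrb and Col1a1. A few listed genes enter the counts and medians of their lists but are not reported here. Lims2 and Dnajc7 are given as overlapping genes. For likeness, genes passing the filter in both tables with a mean of at least 5 CPM were ranked, without mt- genes and predicted or clone-derived names. The tests were also tried on simulated counts, where a far smaller share of genes changed than was called in the data. The rates depend on that share, so they need not hold for the tests reported here. In the simulation the tests recovered 49% of 2-fold changes for ShhN IUE, 62.2% for SmoM2 and 64% between the 2 groups. Of the calls there, 6.06 to 7.53% were false.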

Additional observations from a re-analysis of the deposited data

Results flagged for a closer look

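Lhfpl3 and Cspg4 stand out because their effects differed between the intervention groups by a test of the difference itself. The log2 difference of the SmoM2 effect from the ShhN IUE effect was 1.16 for Lhfpl3 and -0.55 for Cspg4 (edgeR adjusted p = 0.00109 and 0.0111, 3 libraries per group). For Lhfpl3 all 3 SmoM2 libraries were above all 3 ShhN IUE libraries, and for Cspg4 all 3 were below. Leaving out any 1 library kept the call of Lhfpl3. The call of Cspg4 was lost without ShhN IUE library 1 or SmoM2 library 2 (edgeR adjusted p up to 0.0597).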

How the results depend on the processing

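Over the members and comparisons 417 values were recomputed under alternatives, and 393 kept their direction and side of the threshold, 16 lost the call, 3 gained it and 5 changed sign. The sign changes, none of them called, came from leaving out 1 library. Neu4 ranged from -0.83 to 0.15 in SmoM2 against wild type (above 0 without SmoM2 library 1) and from -0.67 to 0.31 between SmoM2 and ShhN IUE (0.11 without ShhN IUE library 2 and 0.0073 without SmoM2 library 3). Sox10 ranged from -0.24 to 0.11 between them (above 0 without ShhN IUE library 3). All lost calls came from leaving out 1 library. The calls of Gpr17, Bcas1 and Sox10 in both comparisons with wild type, of Cspg4 and Lhfpl3 in ShhN IUE and of Cnp in SmoM2 held under every alternative run. With 1 library left out, 4 to 6 members rose in either comparison with wild type, and between SmoM2 and ShhN IUE 1 to 2 were higher and 0 to 1 lower. Over all genes, the calls without 1 library numbered 3251 to 4624 in ShhN IUE (5380 with all, lowest without ShhN IUE library 1), 1334 to 3010 in SmoM2 (3112 with all, at most 1727 without any 1 SmoM2 library) and 834 to 2335 between them (2040 with all, at most 1126 without ShhN IUE library 1 or any 1 SmoM2 library). Changes of low genes were smaller on the log2(FPKM + 1) scale, as for Bcas1.

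The replicate numbers showed no sign of pairing the samples, though groups of 3 are too small to exclude it. Same-numbered libraries correlated in their deviations from the group means at -0.324 to 0.271, and 2 of 6 correlated best with their own number. The fit with the replicate block called 3962, 2468 and 1512 genes in the 3 comparisons and changed no call of a member, while of the list genes named above Mog, Kcnj8, Notch3, Slc1a3 and Id2 in ShhN IUE, Gfap in SmoM2 and Mag between the groups lost theirs with it (adjusted p = 0.0552 for Mog and 0.0572 for Mag), and Id2 gained one in SmoM2 (adjusted p = 0.0183). Depth limits Neu4, at 12 to 43 counts per library.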
